A study of Mus musculus with 12 samples.

Results

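The genes described here are the G1 cyclins and the inhibitors of their kinases. They are the D cyclins Ccnd1, Ccnd2 and Ccnd3, the E cyclins Ccne1 and Ccne2, the CIP/KIP inhibitors Cdkn1a (p21) and Cdkn1b (p27), and the INK4 inhibitors Cdkn2a (p16Ink4a and p19Arf), Cdkn2b (p15Ink4b) and Cdkn2c (p18Ink4c). These 10 genes were chosen by name from the 23423 genes of the deposited table, and each passed the filter on low values, which 13977 genes passed in all. Polyadenylated RNA was sequenced from 12 libraries of mouse heart cells, 2 in each of 6 groups.

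All cells came from CD1 mouse hearts at postnatal day 1.5. The MGT + shPtbp1 group was cardiac fibroblasts that received retrovirus pMXs-puro-MGT, which encodes Mef2c, Gata4 and Tbx5 (transcription factors of the heart), together with a lentiviral hairpin against Ptbp1, an RNA-binding splicing repressor. The MGT + shNT group received the same retrovirus with a non-targeting hairpin lentivirus. The MGT group received the MGT retrovirus alone, and the control group received pMXs-puro without the factors. These 4 groups had been seeded on gelatin in serum medium, transduced the next day and collected at day 3. Fresh cardiomyocytes (CM) came from a commercial neonatal isolation kit, and fresh cardiac fibroblasts (CF) were purified with magnetic beads against the surface protein Thy1. The control libraries are titled lacZ but are otherwise labelled as carrying no insert, and the group is referred to as control vector. The source label of MGT + shPtbp1 replicate 2 names Ptbp2, whereas its title and transduction label name Ptbp1. Whether the 2 replicates of a group were separate animals or cultures is not stated, and the p-values reflect the spread between these libraries, which may be technical.

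D cyclins bind the kinases Cdk4 and Cdk6, and E cyclins bind Cdk2; both kinds of complex phosphorylate the retinoblastoma protein family, which releases E2F transcription factors and lets a cell pass from G1 into S phase. INK4 inhibitors occupy Cdk4 and Cdk6 and keep D cyclins off them, while the CIP/KIP proteins bind whole cyclin and kinase complexes and act most strongly on those with Cdk2. In the rodent heart, cardiomyocytes are known to leave the cell cycle in the first days after birth, whereas fibroblasts placed in serum keep dividing. Cdkn1a is a classical target of p53, and Cdkn2a and Cdkn2b are known to accumulate in fibroblasts kept in culture.

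The depth of the libraries was 49320858 to 94005212 assigned reads. Ptbp1 was 81.1 and 78.5 scaled CPM in the MGT + shPtbp1 libraries, against 359.8 and 365 scaled CPM in the MGT + shNT libraries, so both libraries labelled shPtbp1 were low. Tbx5 averaged 1809 ± 54.2 scaled CPM in MGT cells and 661 ± 23.2 scaled CPM in control-vector cells (SD, n = 2 each), and it was 7.23 ± 0.415 in fresh fibroblasts. Mef2c was 741 ± 29 with MGT, 322 ± 12.3 with the control vector and 139 ± 0.811 in fresh fibroblasts, and Gata4 was 692 ± 12.6, 358 ± 24.1 and 219 ± 1.03 in the same groups. All 3 delivered factors were thus above their fresh level in both control-vector libraries; the source there was not tested, and comparisons with that group cannot be made without these libraries. The summed level of 10 fibroblast markers was 22105 to 22238 scaled CPM in fresh cardiomyocytes and 40774 to 41665 in fresh fibroblasts. The summed level of 10 cardiomyocyte markers was 18241 to 18947 scaled CPM in fresh cardiomyocytes and 1862 to 1911 in fresh fibroblasts, so markers of the other type were present in each fresh preparation. Fewer cells of a type and less RNA per cell cannot be told apart in such bulk libraries.

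The 10 genes differed most between fresh and cultured cells and little between MGT and control-vector cells. The control-vector libraries also held the delivered factors above their fresh level, which limits any comparison with them. Values below are CPM divided by a library factor, called scaled CPM, and changes are log2 differences of scaled CPM + 0.5. A gene was called where the adjusted p of limma (Benjamini-Hochberg over all genes tested) was below 0.05. In control-vector cultures against fresh fibroblasts 6 of the 10 genes were higher and 4 lower, where 86.9% of all tested genes were called (43.5% higher and 43.4% lower). In fresh cardiomyocytes against fresh fibroblasts 7 were higher and 1 lower, where 76.9% of all genes were called (35.2% higher and 41.7% lower). With MGT against control vector 1 was higher and 1 lower, where 35.6% of all genes were called (17.9% higher and 17.7% lower). The lower gene was Cdkn2a, which passed the filter only through control-vector replicate 2 and MGT + shNT replicate 2. That selection favours its call here and its place among the 6 higher in control cultures. With no filter, 0 of the 10 genes were lower with MGT. Adding shNT to MGT left 2 higher and 2 lower, where 44.7% of all genes were called (24.6% higher and 20.1% lower). With shPtbp1 against shNT 3 were higher and 2 lower, where 34.8% of all genes were called (16.7% higher and 18.1% lower). In each comparison the number called in either direction lay within 2 genes of what the share over all genes gives for 10 genes. By direction the split was uneven in cardiomyocytes, with 7 of the 8 called genes higher, where more of all genes were lower than higher; whether the list differs from other genes was not tested.

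**Figure D1:**
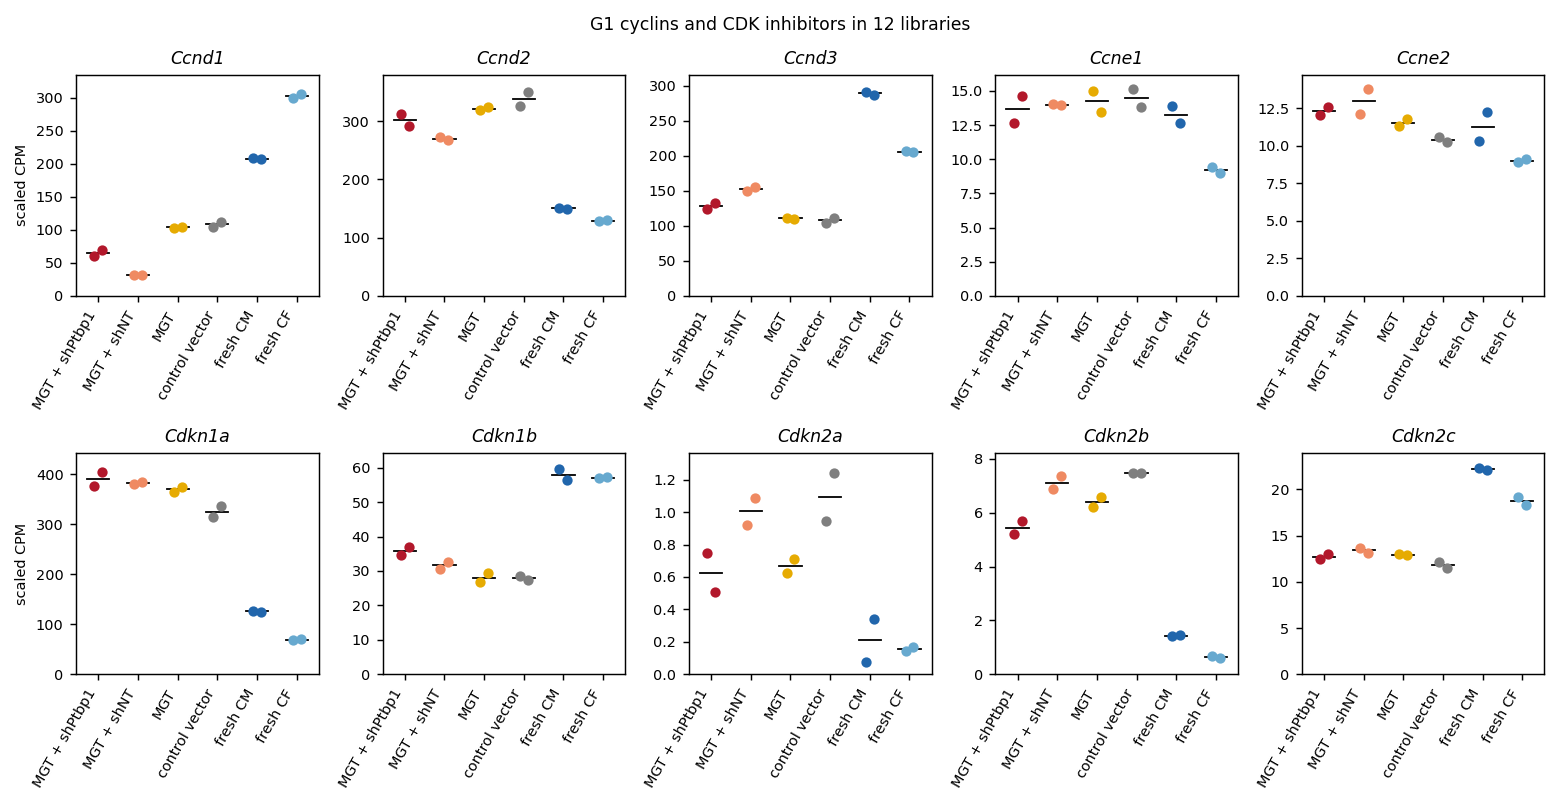
Scaled CPM (vertical axis, linear, starting at 0) of each of the 10 genes in the 12 libraries; points are libraries, black bars are group means (n = 2), and the groups run from MGT + shPtbp1 at the left to fresh CF at the right. Ccnd1 stands at 299 and 305 in fresh CF and at 31.4 and 32.3 with MGT + shNT, while Cdkn1a stands at 68.1 and 69.8 in fresh CF and at 314 or above in every cultured library.

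**Figure D2:**
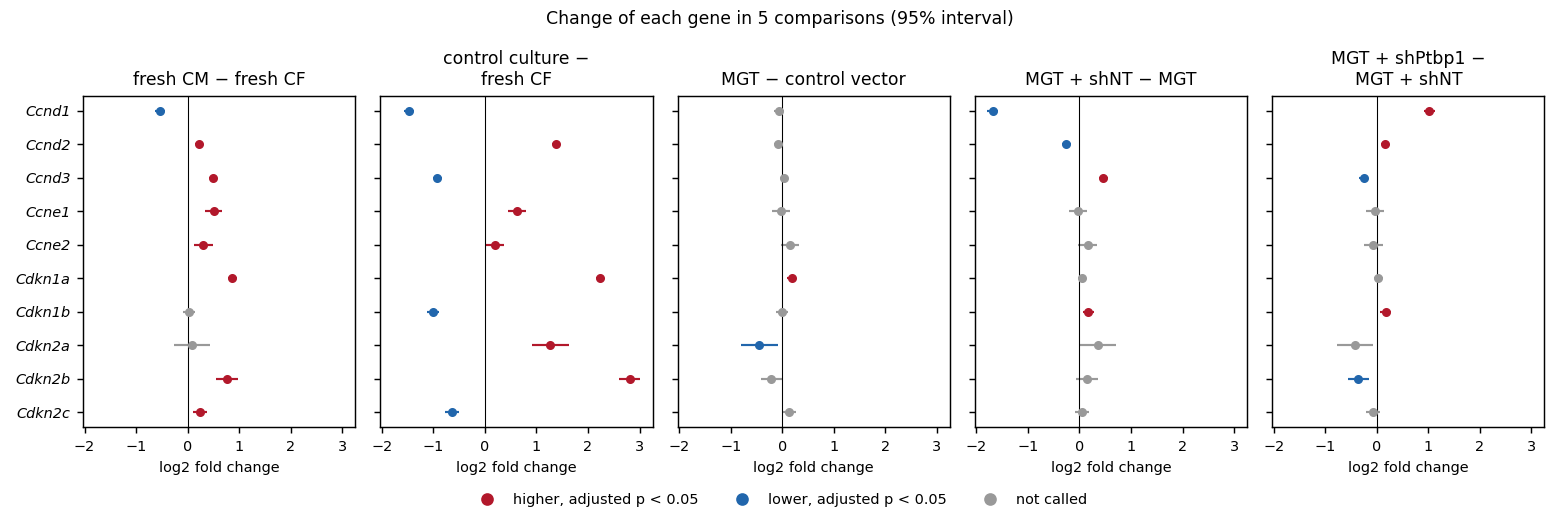
Log2 fold change (horizontal axis, points with 95% intervals) of each gene in the 5 comparisons; red points were higher and blue points lower at an adjusted limma p below 0.05, and grey points were not called. The changes of control culture against fresh CF run from -1.48 for Ccnd1 to 2.81 for Cdkn2b, whereas those of MGT against control vector lie between -0.44 and 0.18.

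Ccnd1 encodes cyclin D1, the D cyclin most directly induced by growth factors, and it lies on chromosome 7 (144929931 to 144939925, minus strand, GRCm38). It was 60.8 and 69.7 scaled CPM with MGT + shPtbp1, 31.4 and 32.3 with MGT + shNT, 104 and 104 with MGT, and 105 and 112 with the control vector. The fresh libraries held more of it, 209 and 207 in cardiomyocytes and 299 and 305 in fibroblasts. All 6 groups stood apart, since no library of any group reached into the range of the next group in the order of means, although the MGT and control-vector means differed by only -0.06 (95% interval -0.17 to 0.04, limma adjusted p = 0.34). Ccnd1 fell by 1.48 log2 units in control cultures against fresh fibroblasts (SE 0.0491, limma adjusted p = 5.81e-16), which is 2.78-fold. It was also lower in cardiomyocytes than in fibroblasts, by -0.54 (limma adjusted p = 8.5e-09).

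Adding the non-targeting hairpin lentivirus to MGT was followed by the largest change of any of the 10 genes among day 3 cells. Ccnd1 was 3.22-fold lower with MGT + shNT than with MGT (log2 difference -1.69, SE 0.0491, limma adjusted p = 1.79e-15). With MGT + shPtbp1 it was 2.03-fold higher than with MGT + shNT (1.02, SE 0.0491, limma adjusted p = 2.26e-11), yet its mean of 65.3 ± 6.28 stayed below the 104 ± 0.125 of MGT cells (SD, n = 2 each; this pair was not tested). Both comparisons share the MGT + shNT libraries, so any deviation of those 2 libraries would enter them with opposite signs. Macrophage markers moved in the same comparison: 7 of 8 listed markers were matched in the table, all 7 were lower with MGT + shNT than with MGT, and their summed level was 1290 to 1341 scaled CPM against 3389 to 3491. In MGT + shPtbp1 cells that sum was 1461 to 1511, with 1 marker higher and 5 lower than with MGT + shNT, and none of the 7 was at 0 in any group. The part of these cells in the level of Ccnd1 was not tested. A gene whose exons overlap those of Ccnd1 on the other strand over 818 bp, LTO1 (Oraov1), averaged 17.7 ± 0.738 with MGT + shNT and 16.8 ± 0.402 with MGT and was not called.

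Ccnd2 encodes cyclin D2 (chromosome 6, 127125162 to 127152193, minus strand) and moved the other way in culture. It was 313 and 292 scaled CPM with MGT + shPtbp1, 272 and 267 with MGT + shNT, 319 and 324 with MGT, and 326 and 351 with the control vector, but only 151 and 149.9 in fresh cardiomyocytes and 129 and 129.7 in fresh fibroblasts. Every cultured library was above every fresh one. The change in control cultures against fresh fibroblasts was 1.38 (SE 0.0391, 2.61-fold, limma adjusted p = 4.43e-17). Among day 3 cells it fell by 0.25 with shNT against MGT (limma adjusted p = 2.88e-05) and was higher by 0.16 with shPtbp1 against shNT (limma adjusted p = 0.00297), the same directions as Ccnd1 at a much smaller size. In cardiomyocytes it was higher than in fibroblasts by 0.22 (limma adjusted p = 5.74e-05). Its exons overlap those of Gm43126 on the other strand over 372 bp.

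Ccnd3 encodes cyclin D3 (chromosome 17, 47505051 to 47599691, plus strand), the D cyclin known to persist in many differentiated tissues. It was 124 and 133 scaled CPM with MGT + shPtbp1, 150.4 and 155 with MGT + shNT, 111 and 111 with MGT, and 105 and 112 with the control vector. Fresh cardiomyocytes held the highest values, 292 and 287, and fresh fibroblasts held 207 and 206. Against fresh fibroblasts it was higher in cardiomyocytes by 0.49 (SE 0.0395, limma adjusted p = 1.59e-09) and fell by 0.93 in control cultures (limma adjusted p = 3.12e-14). With shNT against MGT it rose by 0.46 (limma adjusted p = 1.42e-08), and with shPtbp1 against shNT it fell by 0.25 (limma adjusted p = 5.95e-05), so its direction was opposite to that of Ccnd1 and Ccnd2 in both. Levels with MGT and with the control vector overlapped. Bysl, whose exons overlap those of Ccnd3 by 361 bp on the other strand, was higher in control cultures than in fresh fibroblasts (32.5 ± 0.548 against 18.6 ± 0.65). It was also higher in fresh cardiomyocytes than in fresh fibroblasts (0.23, limma adjusted p = 0.000574). The part of reads from Bysl in the level of Ccnd3 was not tested.

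Per kilobase of exon, which allows the levels of the D cyclins to be set side by side, the mixture of transcripts differed between groups more than their total. Cyclin D1 made up 15.2% ± 1.18 of D cyclin transcripts with MGT + shPtbp1, 7.66% ± 0.0875 with MGT + shNT, 22.9% ± 0.0573 with MGT and 23.4% ± 0.0303 with the control vector (SD, n = 2 each). In fresh cardiomyocytes it was 28.3% ± 0.127, and in fresh fibroblasts it was 43.8% ± 0.411. The share of cyclin D2 was 36.1% to 40.8% in the 4 cultured groups, and it was 11.4% in fresh cardiomyocytes and 10.5% in fresh fibroblasts. Cyclin D3 was the largest share in 4 groups, at 45.6% ± 1.43 with MGT + shPtbp1, 56.2% ± 0.739 with MGT + shNT, 60.2% ± 0.171 in fresh cardiomyocytes and 45.7% ± 0.371 in fresh fibroblasts, and cyclin D2 was the largest with MGT and with the control vector. The sum of the 3 genes was 111 to 124 scaled CPM per kb in the means of the cultured groups, 196 ± 1.95 in fresh cardiomyocytes and 184 ± 0.968 in fresh fibroblasts. These shares rest on the union of annotated exons of each gene and were not tested.

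**Figure D3:**
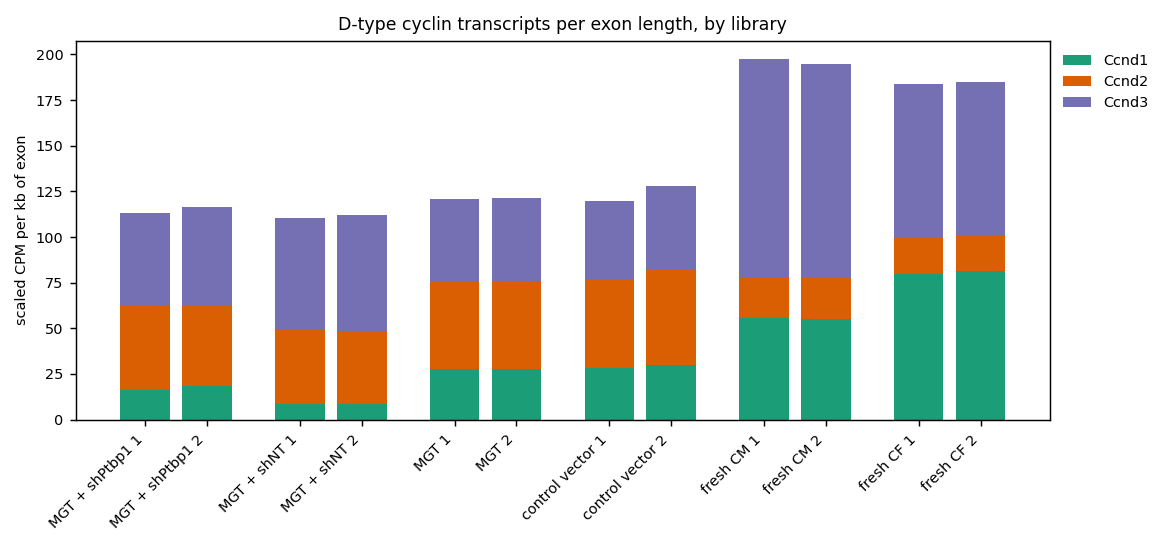
Stacked bars of scaled CPM per kb of exon (vertical axis, starting at 0) for Ccnd1, Ccnd2 and Ccnd3 in each of the 12 libraries, ordered from MGT + shPtbp1 at the left to fresh CF at the right. The Ccnd1 segment is thinnest with MGT + shNT (7.66% of the bar) and widest in fresh CF (43.8%), and the Ccnd2 segment is wide in all 8 cultured libraries.

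The E cyclins Ccne1 (chromosome 7, 38097984 to 38107534, minus strand) and Ccne2 (chromosome 4, 11191351 to 11204779, plus strand) activate Cdk2 at the entry into S phase. They were less abundant than the D cyclins, between 2.82 and 7.23 scaled CPM per kb in all group means, where the D cyclins lay between 8.52 and 118. The gap was narrowest with MGT + shNT, where Ccne1 averaged 6.99 ± 0.0177 and Ccnd1 8.52 ± 0.182 scaled CPM per kb (SD, n = 2 each). Ccne1 was 13.9 and 12.6 scaled CPM in fresh cardiomyocytes and 15.1 and 13.8 in control cultures, against 9.44 and 8.97 in fresh fibroblasts. It was thus higher than in fresh fibroblasts in cardiomyocytes (0.50, SE 0.0824, limma adjusted p = 1.98e-05) and in control cultures (0.62, SE 0.0824, limma adjusted p = 8.61e-07). The other 3 cultured groups spanned 12.7 to 15.0 and overlapped the control cultures, and Ccne1 was called in none of the 3 comparisons among day 3 cells.

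Ccne2 had a narrower range. It was 10.3 and 12.2 scaled CPM in fresh cardiomyocytes and 10.6 and 10.2 in control cultures, against 8.92 and 9.10 in fresh fibroblasts. Both differences from fresh fibroblasts were called, at 0.30 (SE 0.0848, limma adjusted p = 0.00312) and 0.20 (SE 0.0848, limma adjusted p = 0.0372), but the second was lost whenever any 1 of its 4 libraries was left out (adjusted p = 0.0567 to 0.125) and without library scaling (adjusted p = 0.329). The first was lost without cardiomyocyte replicate 2 (adjusted p = 0.095). In the MGT, shNT and shPtbp1 groups Ccne2 lay between 11.3 and 13.8 and was not called. Ints8, which overlaps its exons over 336 bp on the other strand, was higher in control cultures than in fresh fibroblasts (46.1 ± 0.2 against 33.7 ± 0.401), and the part of those reads in the level of Ccne2 was not tested.

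Cdkn1a (chromosome 17, 29090976 to 29100727, plus strand) had the highest level per kb of the 10 genes in every cultured group. It was 377 and 405 scaled CPM with MGT + shPtbp1, 380.3 and 384 with MGT + shNT, 365 and 375 with MGT, and 314 and 337 with the control vector. In fresh cells it was 127 and 126 in cardiomyocytes and 68.1 and 69.8 in fibroblasts, so all cultured libraries lay above all fresh ones. Control cultures exceeded fresh fibroblasts by 2.23 (SE 0.0397, 4.69-fold, limma adjusted p = 3.99e-20), and cardiomyocytes exceeded fibroblasts by 0.87 (SE 0.0397, 1.83-fold, limma adjusted p = 3.25e-13). MGT cells exceeded control-vector cells by 0.18 (SE 0.0397, limma adjusted p = 0.00124), the only rise called among the 10 genes in that comparison. Neither hairpin comparison gave a call, with 0.05 for shNT against MGT (95% interval -0.04 to 0.13) and 0.03 for shPtbp1 against shNT (95% interval -0.05 to 0.12). Its exons overlap those of AC167363.2 on the other strand over 273 bp.

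Cdkn1b (chromosome 6, 134920401 to 134925513, plus strand), whose protein is known to accumulate in resting cells and is regulated largely by its turnover, went the opposite way in culture. It was 28.6 and 27.5 scaled CPM in control cultures against 57.0 and 57.2 in fresh fibroblasts, a fall of 1.01 log2 units (SE 0.0538, 2.02-fold, limma adjusted p = 1.02e-12). In fresh cardiomyocytes it was 59.6 and 56.3, and the difference of 0.02 from fresh fibroblasts was not called (95% interval -0.09 to 0.13). It was 26.8 and 29.4 with MGT, a range that encloses the control-vector values. Small rises were called with shNT against MGT, to 30.7 and 32.7 (0.17, limma adjusted p = 0.014), and with shPtbp1 against shNT, to 34.7 and 36.8 (0.17, limma adjusted p = 0.0186). Each of these was lost when only the 8 day 3 libraries were fitted (adjusted p = 0.0788 and 0.0561). The first was lost without MGT + shNT replicate 2 or MGT replicate 1 (adjusted p = 0.143 and 0.204), and the second without MGT + shPtbp1 replicate 2 or MGT + shNT replicate 1 (adjusted p = 0.164 and 0.174).

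A pair of inhibitors outside the 10 genes belong to the same families. Cdkn1c (p57), an imprinted CIP/KIP gene, was 6.45 ± 0.178 scaled CPM in control cultures and 136 ± 5.88 in fresh fibroblasts (SD, n = 2 each), a fall of 4.30 log2 units or 19.7-fold (limma adjusted p = 9.32e-22). It was 1.99-fold higher with MGT + shNT than with MGT (13.4 ± 0.9 against 6.49 ± 0.0136, limma adjusted p = 8.28e-11) and 1.64-fold lower with MGT + shPtbp1 (7.98 ± 0.147) than with MGT + shNT (limma adjusted p = 3.16e-08). Both changes ran against those of Ccnd1. Exons of Cdkn1c overlap an opposite-strand gene, Gm44732, over 589 bp. Cdkn2d (p19Ink4d) was 2.14-fold higher in cardiomyocytes, at 35.8 ± 0.503 against 16.5 ± 0.02 in fresh fibroblasts (limma adjusted p = 7.73e-12). With MGT it was 11.6 ± 0.33 against 14.4 ± 0.407 with the control vector (log2 difference -0.30, limma adjusted p = 0.000896). Control cultures were also below fresh fibroblasts (-0.19, limma adjusted p = 0.00842).

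The INK4 genes Cdkn2a and Cdkn2b are neighbours on chromosome 4 (89274471 to 89294653 and 89306299 to 89311039, both minus strand), and Cdkn2c lies elsewhere on that chromosome (109660876 to 109667189, minus strand). Cdkn2b had 411 and 405 reads with MGT + shPtbp1, 604 and 641 with MGT + shNT, 526 and 590 with MGT and 694 and 663 with the control vector, against 73 and 110 in fresh cardiomyocytes and 65 and 46 in fresh fibroblasts. In scaled CPM these were 7.47 and 7.49 in control cultures against 0.679 and 0.6 in fresh fibroblasts, with no overlap. The difference of 2.81 (SE 0.0976, limma adjusted p = 1.15e-15) was the largest of the 10 genes in any comparison, and since 0.5 is added before the log it understates the change of a gene this low. Cardiomyocytes were higher than fibroblasts by 0.76 (limma adjusted p = 8.94e-07). With shPtbp1 it was lower than with shNT, 5.22 and 5.68 against 6.88 and 7.35 (-0.36, SE 0.0976, limma adjusted p = 0.00805), a call that was lost without MGT + shPtbp1 replicate 1 or MGT + shNT replicate 2 (adjusted p = 0.065 and 0.0743).

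Cdkn2a was the least abundant of the 10 genes. It passed the filter only through control-vector replicate 2 (1.21 CPM) and MGT + shNT replicate 2 (1.06 CPM). That selection favours a difference between cultured and fresh cells. Among day 3 cells it favours higher levels with the control vector and with MGT + shNT. It had 59 and 36 reads with MGT + shPtbp1, 81 and 95 with MGT + shNT, 53 and 64 with MGT and 88 and 110 with the control vector, against 4 and 26 in fresh cardiomyocytes and 14 and 13 in fresh fibroblasts. All cultured libraries lay above all fresh ones in scaled CPM, and the highest, in control-vector replicate 2, was 1.24. The difference of control cultures from fresh fibroblasts was 1.27 (SE 0.168, limma adjusted p = 8.33e-07). A lower level with MGT than with the control vector (0.625 and 0.713 against 0.947 and 1.24) was called at -0.44 (SE 0.168, limma adjusted p = 0.0468), but edgeR on the recovered reads did not call it (adjusted p = 0.0738), nor did limma with a pseudocount of 0.1 (adjusted p = 0.146) or without MGT replicate 1, MGT replicate 2 or control-vector replicate 2 (adjusted p = 0.107 to 0.284). With no filter the lower level with MGT was not called either (limma adjusted p = 0.112). The table gives 1 value for the gene, so the transcripts of p16Ink4a and p19Arf cannot be told apart.

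Unlike Cdkn2a and Cdkn2b, but like Cdkn2d, Cdkn2c was lower in culture. It was 12.1 and 11.5 scaled CPM in control cultures and 22.3 and 22.1 in fresh cardiomyocytes, against 19.2 and 18.3 in fresh fibroblasts. The fall in culture was 0.64 log2 units (-0.64, SE 0.0636, limma adjusted p = 1.45e-08), and the excess in cardiomyocytes was 0.24 (SE 0.0636, limma adjusted p = 0.00239). The other cultured groups lay between 12.5 and 13.7, and none of the 3 comparisons among day 3 cells gave a call.

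Cdkn1a and Cdkn2b were the genes of the 10 with the largest increases in culture, and Cdkn2a is the neighbour of Cdkn2b, with a difference that the filter favours. The 250 bases before their annotated starts are shown, from RefSeq (GRCm38.p6), each read 5′ to 3′ on the strand of the gene. Capitals mark matches, on either strand, to an E2F site (TTTGGCGC, TTTCCCGC, TTTGCCGC or TTTCGCGC), a GC box (GGGCGG), a CRE (TGACGTCA) or a p53 site (a pair of adjacent decamers with at most 1 mismatch outside their conserved core). The CCAAT box (CCAAT), TATA box (TATAAA), AP-1 site (TGACTCA) and E-box (CACGTG) were searched as well and had no match in these 5 windows. Cdkn1a and Cdkn2a have a pair of starts each; in Cdkn2a the upstream one, start 1, precedes the first exon of p19Arf and start 2 that of p16Ink4a.
Cdkn1a start 1, chr17:29090729-29090978, plus strand: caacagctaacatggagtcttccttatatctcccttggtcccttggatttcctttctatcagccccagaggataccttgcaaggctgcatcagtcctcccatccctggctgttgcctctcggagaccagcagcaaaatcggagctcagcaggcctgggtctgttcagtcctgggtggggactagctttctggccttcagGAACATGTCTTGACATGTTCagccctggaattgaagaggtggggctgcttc
Cdkn1a start 2, chr17:29093519-29093768, plus strand: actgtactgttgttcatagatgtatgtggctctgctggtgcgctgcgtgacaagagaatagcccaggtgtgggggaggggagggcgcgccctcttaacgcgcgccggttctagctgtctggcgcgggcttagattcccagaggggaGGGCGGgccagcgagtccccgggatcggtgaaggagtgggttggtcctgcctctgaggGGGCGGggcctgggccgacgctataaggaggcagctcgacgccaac
Cdkn2a start 1, chr4:89294620-89294869, minus strand: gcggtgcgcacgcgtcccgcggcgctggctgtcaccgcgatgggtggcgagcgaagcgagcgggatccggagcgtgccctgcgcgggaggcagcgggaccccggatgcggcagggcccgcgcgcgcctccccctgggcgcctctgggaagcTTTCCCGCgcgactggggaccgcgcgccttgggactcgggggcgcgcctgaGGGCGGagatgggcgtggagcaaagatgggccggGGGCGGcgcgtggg
Cdkn2a start 2, chr4:89282193-89282442, minus strand: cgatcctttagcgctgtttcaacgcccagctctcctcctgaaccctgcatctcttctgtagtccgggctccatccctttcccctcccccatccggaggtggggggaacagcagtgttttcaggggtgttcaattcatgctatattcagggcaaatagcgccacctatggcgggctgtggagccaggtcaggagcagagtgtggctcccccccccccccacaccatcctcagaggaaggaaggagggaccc
Cdkn2b start 1, chr4:89311033-89311282, minus strand: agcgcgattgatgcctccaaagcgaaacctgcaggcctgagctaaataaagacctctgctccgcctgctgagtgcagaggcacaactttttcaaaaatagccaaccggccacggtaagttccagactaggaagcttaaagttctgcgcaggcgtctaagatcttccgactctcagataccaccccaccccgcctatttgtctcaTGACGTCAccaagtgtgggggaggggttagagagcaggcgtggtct

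No motif was held by all 5 windows, and no matches overlapped. Counting back from the start to the first base of a match, the p53 site began 51 bases before start 1 of Cdkn1a, and 0.0578% of all 32851 promoter windows of this length held such a site. Start 2 of Cdkn1a had GC boxes at 104 and 46 bases upstream, a motif in 32.7% of windows. An E2F site stood at -99 and GC boxes at -48 and -14 of start 1 of Cdkn2a, and start 2 had no match; E2F sites were in 1.86% of windows. Cdkn2b had a CRE at -46, found in 1.55% of windows. Promoters of 7 of the 10 genes were matched, and those of Ccnd1, Ccnd2 and Ccne2 were not. A match is a description of letters, and binding was not measured.

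In control cultures against fresh fibroblasts, most genes downstream of G1 control were lower while most targets of p53 were higher. Over all tested genes 43.5% were higher and 43.4% lower in this comparison. Of 20 E2F-target genes of S phase, 17 were lower and 0 higher (median -0.41, against 0.00 over all tested genes), among them Mcm4, a subunit of the replicative helicase, at 57.9 ± 1.51 against 97.2 ± 2.24 scaled CPM. Among 20 mitosis genes 14 were lower and 5 higher (median -0.43), and Mki67, a marker of cycling cells, was 244 ± 2.67 against 419 ± 17.1 (SD, n = 2 each). In the p53 list 14 of 18 genes were higher and 2 lower (median 1.26). The list was led by Ccng1, which was 476 ± 6.24 against 46.6 ± 0.409, and by Eda2r, at 83.2 ± 2.44 against 9.29 ± 0.503. The p53 inhibitor Mdm2, itself a target, was higher by 1.09 (limma adjusted p = 3.82e-16). Among 21 genes of cyclin and inhibitor turnover and upstream control 15 were lower and 5 higher; Myc, an inducer of cyclin genes, was 50.4 ± 0.0715 against 134 ± 2.25, and Foxo1, an activator of Cdkn1b, was 24.4 ± 0.59 against 72.4 ± 0.216.

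The partners of the 10 genes were measured in the same comparison. Of 11 kinases and activators 4 were higher and 5 lower, close to the shares over all genes (43.5% higher and 43.4% lower), with Cdk2, the partner of the E cyclins, at 30.1 ± 0.188 in control cultures against 61.0 ± 1.77 in fresh fibroblasts. Of 17 genes of the Rb and E2F families 2 were higher and 9 lower, and E2f7, an E2F repressor, was 12.8 ± 0.723 against 38.7 ± 1.25. Markers of cell types moved with culture. Of endothelial markers 8 of 8 were lower. Their summed level was 505 to 534 scaled CPM in control cultures against 3687 to 3734 in fresh fibroblasts. Of macrophage markers 5 of 7 were higher and 1 lower, with sums of 3202 to 3429 against 783 to 784. Of cardiomyocyte markers 8 of 10 were lower and 2 higher (median -2.35), though their summed level was 2598 to 2778 against 1862 to 1911. Fibroblast markers had 4 of 10 lower and 3 higher, and epicardial markers had 4 of 8 lower and 3 higher. None of these markers was at 0 in either group, and their part in the levels of the cyclins and inhibitors was not tested. Time, culture, transduction and the raised levels of the delivered factors cannot be told apart in this comparison.

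Fresh cardiomyocytes held more transcripts of most p53 targets and mitosis genes than fresh fibroblasts. Of the p53 list 14 of 18 were higher and 4 lower (median 0.42, against -0.05 over all genes), with Gdf15, a stress cytokine, at 55.4 ± 7.43 against 5.93 ± 0.591 scaled CPM and Btg2, an antiproliferative gene, lower at 244 ± 3.35 against 641 ± 6.08. Among 20 mitosis genes 12 were higher and 4 lower, including Cdc20, an activator of the anaphase-promoting complex, at 72.0 ± 1.56 against 47.2 ± 1.12. Mki67 was 410.1 ± 0.767 in cardiomyocytes and 419 ± 17.1 in fibroblasts and was not called. Of 20 S phase genes 5 were higher and 9 lower, where 35.2% of all genes were higher and 41.7% lower. Cdk6, a partner of D cyclins, was 12.6 ± 0.7 against 19.4 ± 0.101, and Mycn was 55.4 ± 1.9 against 16.7 ± 0.0461. Of 17 genes of the Rb and E2F families 1 was higher and 7 lower, with Rbl1 (p107) at 24.7 ± 1.35 against 38.4 ± 0.598. Their share of lower genes was close to that over all genes. Besides the fibroblast and cardiomyocyte markers, endothelial markers were higher in 5 of 8 (sum 4490 to 4497 against 3687 to 3734). The 3 tested erythroid markers were higher (sum of 4 markers 33.1 to 33.9 against 4.84 to 5.02), and of 8 epicardial markers 5 were higher and 2 lower. Of 7 macrophage markers 2 were higher and 3 lower (sum 617 to 635 against 783 to 784). The part of these cell types in these differences was not tested.

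MGT cells held less of many S phase and mitosis transcripts than control-vector cells. Of 20 S phase genes 13 were lower and 0 higher (median -0.16, against -0.01 over all genes), and of 20 mitosis genes 11 were lower and 0 higher (median -0.16). Tyms, the thymidylate synthase, was 26.5 ± 0.525 with MGT and 33.4 ± 1.46 with the control vector, and Cdc20 was 25.8 ± 0.884 against 34.2 ± 2.05. Mki67 was not called (240.4 ± 8.55 against 244 ± 2.67). Cdk4, the main kinase partner of D cyclins, was 192 ± 6.46 against 223 ± 0.1, a log2 difference of -0.22 (limma adjusted p = 8.82e-05). Cdk6 was 28.2 ± 1.45 against 23.3 ± 4.29 (0.28, limma adjusted p = 0.0335). Foxo1 was higher at 41.3 ± 0.431 against 24.4 ± 0.59. The p53 list had 4 of 18 genes higher and 7 lower (median -0.02), where 17.9% of all genes were higher and 17.7% lower. Markers of cell types moved with the groups, and their part in these changes was not tested. The summed cardiomyocyte markers were 3830 to 4031 scaled CPM with MGT against 2598 to 2778 with the control vector (7 of 10 higher, 1 lower), and the fibroblast sum was 17205 to 17396 against 21194 to 23374 (8 of 10 lower, 1 higher). Of endothelial markers 6 of 8 were lower, of epicardial 5 of 8 were lower and 1 higher, and of macrophage 4 of 7 were lower and 1 higher.

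With MGT + shNT against MGT, 9 of 20 S phase genes were lower and 0 higher, while 8 of 20 mitosis genes were higher and 2 lower. Over all tested genes 24.6% were higher and 20.1% lower in this comparison. Pcna, the sliding clamp of DNA polymerase, was 85.2 ± 2.02 against 111 ± 0.0633 scaled CPM, and Prc1, a spindle midzone protein, was 89.4 ± 0.649 against 70.9 ± 1.2. Cdt1, a licensing factor, was 10.7 ± 0.615 against 18.5 ± 1.37. Mki67 was lower, 205 ± 3.49 against 240.4 ± 8.55 (-0.23, limma adjusted p = 5.2e-05). Cdc25a, a phosphatase that activates Cdk2, was 24.5 ± 1.06 against 17.8 ± 0.0912, and Myc was 32.5 ± 0.181 against 43.1 ± 2.5. Of the p53 list 11 of 18 were higher and 2 lower, with Mdm2 at 164 ± 1.04 against 119 ± 1.63. The macrophage marker sums given for Ccnd1 moved with these groups too, as did endothelial markers (6 of 8 higher and 1 lower, sum 554 to 562 against 436 to 471), fibroblast markers (4 of 10 higher and 1 lower) and epicardial markers (3 of 8 higher and 1 lower). Their part was not tested.

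With MGT + shPtbp1 against MGT + shNT, the proliferation lists were mostly lower although Ccnd1 was higher. Of 20 mitosis genes 15 were lower and 0 higher (median -0.26, against -0.0011 over all genes), and of 20 S phase genes 12 were lower and 1 higher (median -0.17). Mki67 was 167 ± 5.06 against 205 ± 3.49 scaled CPM (-0.29, limma adjusted p = 7.55e-06), and Aurkb, a mitotic kinase, was 13.2 ± 0.285 against 17.5 ± 0.277. Of the Rb and E2F families 10 of 17 were lower and 1 higher; E2f7 was 11.1 ± 0.768 against 18.3 ± 0.189 and Rb1 was 34.7 ± 0.564 against 43.2 ± 1.6, while Rbl2 (p130), the pocket protein of resting cells, was higher at 34.1 ± 0.149 against 23.0 ± 0.373. Cdc25a was 16.3 ± 1 against 24.5 ± 1.06, and Ccnh, a subunit of the kinase that activates CDKs, was 26.9 ± 1.27 against 19.8 ± 1.15. The p53 list had 3 of 18 genes higher and 8 lower (median -0.07), where 16.7% of all genes were higher and 18.1% lower. Cardiomyocyte markers summed to 4539 to 4833 scaled CPM with shPtbp1 and 3818 to 4063 with shNT (6 of 10 higher). Of fibroblast markers 5 of 10 were higher and 1 lower, of epicardial 1 of 8 was higher and 5 lower, and of endothelial 2 of 8 were higher and 2 lower; their part was not tested.

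**Figure D4:**
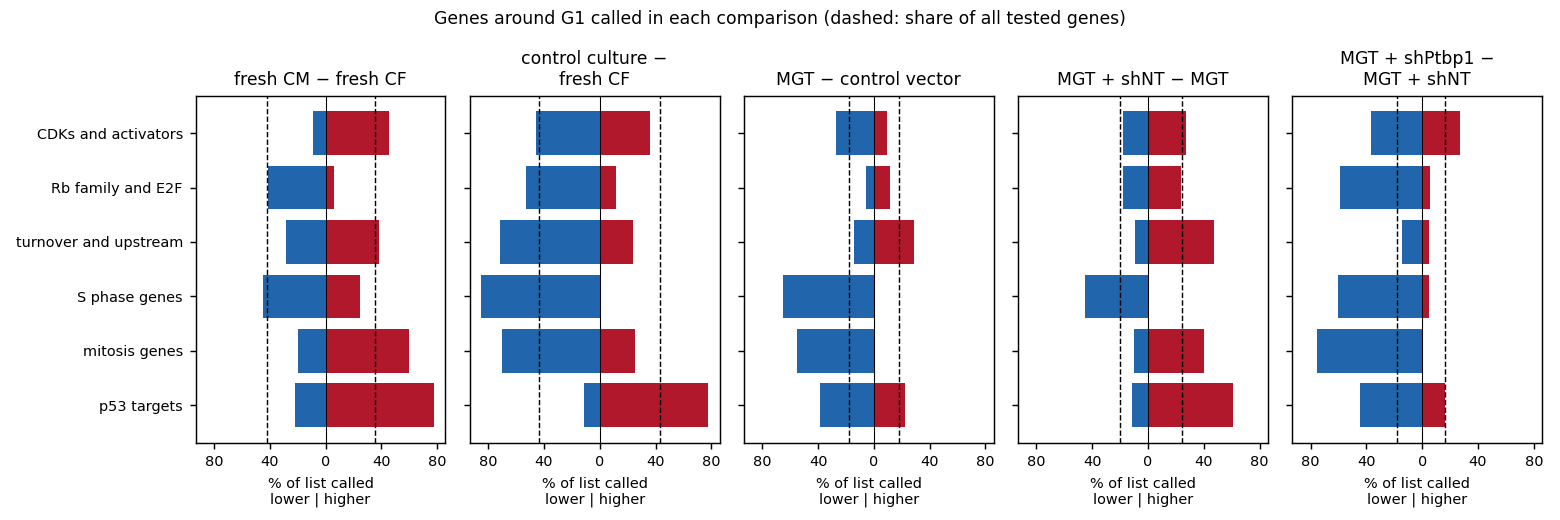
Share of each gene list called higher (red, to the right) or lower (blue, to the left) in the 5 comparisons, in percent of the genes tested; dashed lines give the share of all 13977 tested genes called in that direction. S phase genes reach no red bar in control culture against fresh CF, in MGT against control vector or in MGT + shNT against MGT, and 14 of 18 p53 targets are red in control culture.

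The genes whose levels followed those of the 10 most closely were sought by Pearson's r of the log2 values over the 12 libraries, among genes with at least 10 scaled CPM in their highest group. Ccnd1 was most like Pltp (r = 0.99) and Rassf2 (r = 0.989), Ccnd2 like Edem1 (r = 0.999) and Tor3a (r = 0.996), and Ccnd3 like Kdm3a (r = 0.992) and Ist1 (r = 0.988). Cdkn1a was most like Jph2 (r = 0.999) and Kif1c (r = 0.999), Cdkn1b like Stc1 (r = 0.994) and Zfp869 (r = 0.993), Cdkn2b like M6pr (r = 0.997) and Rragc (r = 0.997), and Cdkn2c like Mbtd1 (r = 0.995) and Prdm2 (r = 0.994). The best match was weaker for 3 low genes, though not for Cdkn2b and Cdkn2c, which are also low. Ccne1 reached 0.974 with Prkrip1 and Uxt, Cdkn2a 0.972 with Nudcd1, and Ccne2 0.937 with Bcas2. These are descriptions over 12 points that fall into fresh and cultured cells, and each is the highest of 10446 or 10447 candidates.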

How the data were processed

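Per the labels' protocols, the kit used for the 12 polyadenylated RNA libraries keeps strand. The deposited values are CPM of 23423 genes in 1 table; FastQC, TopHat2 2.1.0, HTSeq 0.6.1p1 and the mm10 build are named in the submitters' processing notes, while the gene annotation and whether HTSeq counted by strand were not given in the sources used here. Reads in exons that overlap on opposite strands can therefore not be assigned with certainty. Each of the 12 columns carried its sample's title, in a shortened form for the MGT + shPtbp1 and MGT + shNT libraries. Those columns were matched by the shortened names, with shPt read as shPtbp1. Whole reads were recovered from the CPM (100% of values within 0.1 reads), which gave 49320858 to 94005212 assigned reads a library. Replicates differed by more than sampling noise in every group (chi-square per degree of freedom 3.56 to 15.6), so none was counted as a duplicate.

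Each column was scaled by its median-of-ratios factor (0.966 to 1.06), and a gene was kept if 2 or more libraries held 1 CPM or above. Log2(scaled CPM + 0.5) of all 13977 kept genes entered a linear model in limma 3.58.1 under R 4.3.3 (eBayes with trend, 1 mean per group, 6 residual degrees of freedom), and p-values of the 5 comparisons were two-sided and adjusted over all genes (Benjamini-Hochberg, 0.05). The fit was also run on simulated data with the same spread beyond sampling noise for all genes. No result here rests on that run. edgeR 4.0.16 on the recovered reads was an alternative, because the deposited unit is CPM. Exon lengths and positions come from GENCODE M21 (GRCm38), and promoters from RefSeq (GRCm38.p6). From each list, up to 4 called genes with the largest change could be named if their higher group reached 5 scaled CPM, besides Cdkn1c, Cdkn2d and Mki67; genes that overlap a member, the delivered factors and Ptbp1 were named for checks. The 10 genes, the lists and the naming rule were chosen with earlier results of these data known. Splicing and isoforms were not analysed here. Figures were drawn with matplotlib 3.10.9.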

Additional observations from a re-analysis of the deposited data

How the results depend on the processing

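Of 775 values of single genes under alternatives 725 kept their direction and side of the threshold, 24 were no longer called, 9 became called and 17 changed sign. None of the 17 was called, as reported or under the alternative. With MGT against control vector Cdkn1b (0.0003 as reported) was -0.011 without scaling and -0.022 with upper-quartile scaling. After quantile normalization Cdkn2a in CM against CF was -0.0096, Ccnd3 and Ccne1 with MGT against control vector were -0.0027 and 0.00798, and Ccne1 with shNT against MGT was 0.023. Leaving out single libraries gave ranges that cross 0 for Cdkn1b (-0.025 to 0.057) and Cdkn2a (-0.19 to 0.35) in CM against CF, Ccnd3 (-0.014 to 0.077), Ccne1 (-0.096 to 0.055) and Cdkn1b (-0.066 to 0.069) with MGT against control vector, Ccne1 with shNT against MGT (-0.097 to 0.052), and Ccne1 (-0.14 to 0.063), Ccne2 (-0.15 to 0.028) and Cdkn1a (-0.020 to 0.083) with shPtbp1 against shNT. The count of genes of the 10 that were lower with MGT than with the control vector was the least stable: it was 1 as reported, 2 with quantile normalization or a pseudocount of 2, and 0 with a pseudocount of 0.1, no filter, a filter at 5 CPM (where Cdkn2a is not tested) or edgeR. Ccnd2 was called lower in that comparison after quantile normalization (adjusted p = 0.0112), and Cdkn2b with a pseudocount of 2 (adjusted p = 0.0406). The count higher with shNT than with MGT was 2, and 1 with only the 8 libraries of day 3 or 3 after quantile normalization. Leaving out single libraries gave 0 to 2 lower with MGT against control vector, 1 to 2 higher with shNT against MGT and 1 to 2 lower with shPtbp1 against shNT, and moved the number of all genes called lower from 2475 to between 1565 (without MGT replicate 2) and 2251 for MGT against control vector, and from 2531 to between 1667 (without MGT + shNT replicate 1) and 2326 for shPtbp1 against shNT. Cdkn2a became called with shPtbp1 against shNT under 4 alternatives (adjusted p = 0.0325 to 0.0495) and with shNT against MGT under 2 (adjusted p = 0.0269 and 0.0337). The cause of these differences was not tested. The median of all genes in control culture against fresh fibroblasts was 0.00, -0.10 without scaling and 0.11 after quantile normalization. With the replicate number as a block, 1 of the 10 genes was higher and 1 lower with MGT against control vector, and the counts of the 10 were unchanged in the 5 comparisons; over all genes 2421 were lower with MGT against control vector. Same-numbered libraries deviated together with correlations of -0.03 to 0.16 over 2 pairs, so the numbers were not taken to pair the samples. Cdkn2a rests on 4 to 110 reads a library, the fewest of the 10 genes. It passed the filter through 1 control-vector and 1 MGT + shNT library, which favours higher levels in those groups.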
